A study of Mus musculus with 8 samples.

Results

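The 7 genes described here encode receptor tyrosine kinases of blood, vessel and connective tissue cells: Kit, Flt3, Csf1r, Pdgfra, Pdgfrb, Kdr and Tek. They were chosen by name, 7 of the 21887 protein-coding genes examined, and each was read over its whole span plus 50 kb on either side, called its window below. The data are chromatin immunoprecipitation and sequencing (ChIP-seq) peak lists from EML_C1, an established mouse haematopoietic progenitor line labelled C57BL/6 and grown with 200 ng/ml mouse stem cell factor, which is the ligand of Kit. All 3 antibodies were used on this same untreated line: Ezh2, the histone mark H3K27me3 and Runx1, with 2 replicates each, and 2 input libraries served as controls but were not analysed here. Fixation differed: cells for the Ezh2 and Runx1 libraries had 2 mM DSG for 60 min and then 1% formaldehyde for 60 min, those for H3K27me3 only 1% formaldehyde for 10 min. RNA was not measured in these libraries, so a peak says nothing here about whether a receptor was expressed.

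Class III receptor tyrosine kinases carry immunoglobulin-like domains outside the cell and a kinase domain split by an insert. Ligand binding joins receptors in pairs, which phosphorylate each other and pass the signal to the RAS, PI3 kinase and STAT pathways. Kit, Flt3 and Csf1r, the receptors for stem cell factor, FLT3 ligand and CSF1, act in blood progenitors and macrophages, whereas Pdgfra and Pdgfrb, the receptors for platelet-derived growth factors, act mainly in mesenchymal cells. Kdr, a VEGF receptor, and Tek, the angiopoietin receptor also called Tie2, belong to related classes and are known from endothelium and from blood stem cells. Ezh2 is the catalytic subunit of Polycomb repressive complex 2, which sets H3K27me3, and Runx1 is a DNA-binding regulator of blood genes.

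The 7 genes fell into contrasting chromatin patterns. Kit, Csf1r and Pdgfrb held several Runx1 regions inside the gene and no Ezh2 or H3K27me3 region anywhere in their windows, where a region is a run of overlapping peaks found in both replicates. Pdgfra and Kdr held Ezh2 and H3K27me3 inside the gene and no Runx1 region there. Flt3 held Runx1 inside the gene and a Polycomb domain beyond its 3′ end, and Tek held weak H3K27me3 alone inside the gene. The first pattern was shown by 3 of 7 receptors, against 10.4% of all protein-coding genes, and the second by 2 of 7, against 12.2%. These patterns were described after the values were seen, and the windows of Csf1r and Pdgfrb overlap, so the counts are a description.

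A Runx1 region lay in the window of 6 of 7 receptors, against 78.9% of all genes, and inside the span of 4 of 7, against 56.5%. An Ezh2 region lay in the window of 4 of 7, against 60.6%, and inside the span of 2, against 24.6%. An H3K27me3 region lay in the window of 4 of 7, against 78.9%, and inside the span of 3, against 36.8%. The median share of the window covered by peaks was 3.40% over the receptors and 1.64% over all genes for Runx1. For Ezh2 these medians were 1.29% and 1.27%, and for H3K27me3 they were 9.44% and 7.28%. Single receptors stood far above or below these medians. When peaks were limited to a q, the peak caller's false discovery rate, of 0.01 or less, an H3K27me3 region was left in the windows of Flt3 and Pdgfra, 2 of 7 against 13.7% of all genes, and an Ezh2 region in those of Flt3, Pdgfra and Kdr, 3 of 7 against 34%. Runx1 kept its 6 windows, against 76.3%, but 5 at a q of 1e-05 or less and 4 with the 10000 peaks of lowest p in each list, where the window of Kit had 0 Runx1 peaks. The shares of all genes under these last settings were not computed, so the loss cannot be set against that of other genes.

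**Figure D1:**
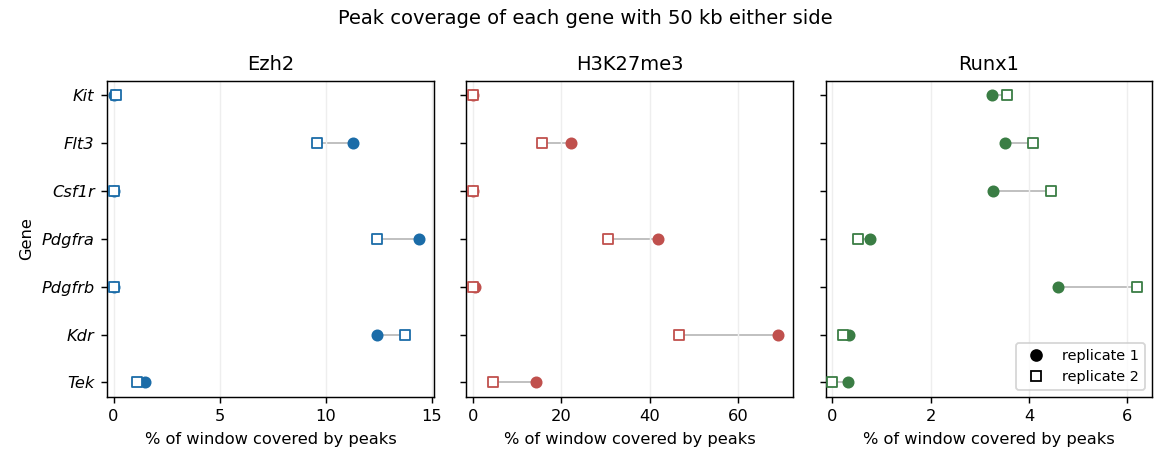
Share of each gene's window (gene plus 50 kb on either side) covered by peaks of each antibody, in percent, with 1 point per replicate. Pdgfra and Kdr stand high for Ezh2 and H3K27me3 and low for Runx1, and Kit, Csf1r and Pdgfrb the other way round. Flt3 has all 3. Tek is low for Runx1, and its Ezh2 share lies between those of Kit and Flt3.

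The annotated starts are shown first, because the antibodies differed there between receptors that are neighbours on one chromosome. The sequences are those of RefSeq on GRCm38.p6, whose chromosomes have the coordinates of mm10, and run from 250 bases before the start to 50 bases from it on. The table held starts for 5 of the 7 genes. Kit had 2 annotated promoters, of which the first listed was used. In Kit (chr5:75574737-75575036, plus strand) capitals mark the 14 bases between the Runx1 summits of the replicates, and in Flt3 (chr5:147400440-147400739, minus strand) they mark a Runx motif. In Pdgfra (chr5:75152001-75152300, plus strand) and Kdr (chr5:75978406-75978705, minus strand) they mark CG dinucleotides.
Kit: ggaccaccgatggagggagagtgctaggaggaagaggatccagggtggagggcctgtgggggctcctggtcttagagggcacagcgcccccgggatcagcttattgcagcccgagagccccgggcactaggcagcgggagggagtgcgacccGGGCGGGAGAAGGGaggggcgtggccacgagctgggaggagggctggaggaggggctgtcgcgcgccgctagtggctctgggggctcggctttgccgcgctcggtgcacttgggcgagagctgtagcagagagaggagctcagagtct
Flt3: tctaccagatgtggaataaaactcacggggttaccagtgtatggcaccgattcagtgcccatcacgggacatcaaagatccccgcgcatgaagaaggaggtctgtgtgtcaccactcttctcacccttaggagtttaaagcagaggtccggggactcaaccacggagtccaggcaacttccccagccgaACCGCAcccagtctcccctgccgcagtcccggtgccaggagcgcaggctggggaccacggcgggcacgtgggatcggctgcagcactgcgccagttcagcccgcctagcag
Pdgfra: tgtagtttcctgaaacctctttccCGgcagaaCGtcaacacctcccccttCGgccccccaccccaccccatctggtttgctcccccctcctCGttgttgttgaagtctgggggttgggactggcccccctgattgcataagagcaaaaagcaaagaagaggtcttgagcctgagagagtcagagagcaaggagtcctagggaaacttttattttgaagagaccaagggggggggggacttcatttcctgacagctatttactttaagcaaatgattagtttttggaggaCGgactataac
Kdr: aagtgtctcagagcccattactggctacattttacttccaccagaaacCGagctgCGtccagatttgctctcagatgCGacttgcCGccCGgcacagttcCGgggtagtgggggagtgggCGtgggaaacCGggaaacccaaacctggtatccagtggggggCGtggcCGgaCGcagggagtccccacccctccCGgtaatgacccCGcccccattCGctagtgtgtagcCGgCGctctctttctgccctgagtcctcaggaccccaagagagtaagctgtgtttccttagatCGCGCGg

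The Runx motif was searched as TGTGGT and TGCGGT on both strands, and 22.4% of the 32851 promoters of the table hold either. Among these receptors Flt3 alone had a match, TGCGGT on the opposite strand, 61 bases before the start. A Gata motif, AGATAA or TGATAA, stood in 18.6% of all promoters and here in Tek alone, as AGATAA after the start. These 5 starts differed in CG dinucleotides, with 20 in Kit, 19 in Kdr, 18 in Flt3, 5 in Pdgfra and 3 in Tek, against a median of 7 over all promoters. The motifs do not overlap each other, and a match or its lack is a property of the letters only.

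A Runx1 region lay within 1 kb of the start of Kit and Flt3 and not of Pdgfra, Kdr or Tek, where 46% of genes with an annotated start had one. An Ezh2 region lay there in Pdgfra alone of the 5, against 14% of genes, and an H3K27me3 region in Pdgfra, Kdr and Tek, against 27.1%. On the printed bases themselves Pdgfra, with 5 CG dinucleotides, carried an Ezh2 peak and an H3K27me3 peak in each replicate. Kdr, with 19, carried no Ezh2 peak and an H3K27me3 peak in replicate 1 alone. Flt3, with 18, had the same calls for Ezh2 and H3K27me3, as did Tek, with 3, whose bases are not printed. Kit, with 20, carried neither. Whether CG content bears on Ezh2 was not tested.

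Kit, the receptor for the stem cell factor on which the line is grown, lies on chromosome 5 (75574987 to 75656722, plus strand). Its window had 20 and 19 Runx1 peaks in replicates 1 and 2, and they covered 3.26% and 3.55% of it. Ezh2 had 0 and 1 peaks in the window and H3K27me3 1 and 0, none of which recurred in the other replicate. Kit thus had Runx1 in both libraries and no Polycomb peak that recurred. Its mean Runx1 coverage of 3.40 ± 0.210% (SD, n = 2) was higher than that of 77.4% of genes, counting ties as halfway. The nearest Ezh2 region to Kit was 223 kb away, farther than for 85.8% of genes, and the nearest H3K27me3 region 156 kb, farther than for 92.3%.

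Inside Kit 12 Runx1 peaks were called in each replicate, and 9 of each overlapped a peak of the other. These 9 regions formed an early and a late group. In the early group, within 10 kb of the start, were 5 regions, and their order of height was the same in both libraries. The summits over the start lay 85 and 98 bases before it, with fold enrichments of 4.11 and 3.94 in replicates 1 and 2. This fold is the authors' enrichment of a peak over its local background. The highest of the group had summits 3.20 kb after the start in both libraries, with folds of 5.82 and 7.44. A region with summits at 7.26 and 7.21 kb had folds of 4.55 and 5.95. The remaining early regions were weaker, with mean folds of 1.96 and 2.25.

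The late group held 4 regions between 47.4 and 58.7 kb after the start. The last one had the highest mean fold inside Kit, 6.67, but also the widest difference between libraries, with folds of 4.15 and 9.19. The region at 47.6 kb was steady, with folds of 4.96 and 4.73. At a q of 0.01 or less 6 of the 9 regions were kept. Their heights were ordinary for Runx1 in these cells, since the highest region stood above 66.4% of all 44027 Runx1 regions and the one over the start above 41.2%.

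**Figure D2:**
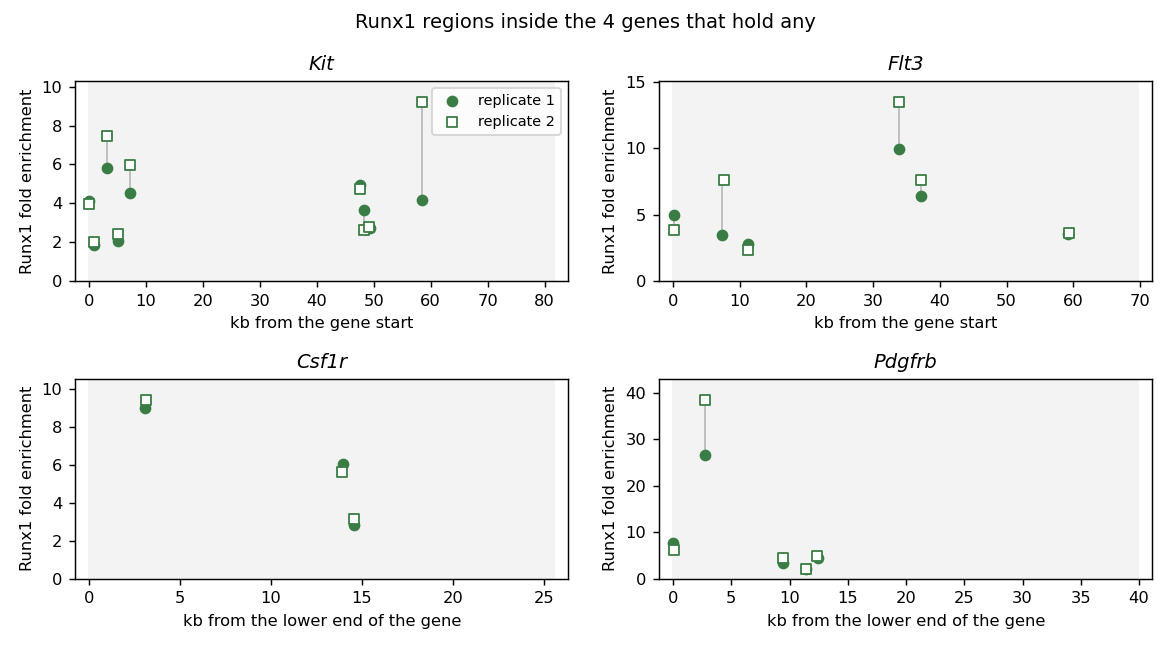
Fold enrichment at the summit of each Runx1 region inside Kit, Flt3, Csf1r and Pdgfrb in both replicates (circles and squares joined by a line), against position in kb, and the grey band is the gene. Kit has 9 regions in an early and a late group, Flt3 has 6, Csf1r has 3, and Pdgfrb has 5, of which 1 stands far above the rest.

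Kit stood between Pdgfra and Kdr on chromosome 5, and the marks changed along this stretch. Inside Pdgfra Ezh2 peaks covered 23.1% and 20.0% of the gene in replicates 1 and 2, and H3K27me3 peaks 71.3% and 51.2%. Over the 377 kb between Pdgfra and Kit Ezh2 covered 0.291% and 0.481% and H3K27me3 3.21% and 1.94%. Inside Kit Ezh2 covered 0% in both and H3K27me3 0.278% and 0%. The Polycomb signal was thus all but lost over Kit and came back before Kdr. The 276 kb between Kit and Kdr had Ezh2 coverage of 3.12% in each replicate and H3K27me3 coverage of 16.3% and 11.4%. Inside Kdr Ezh2 covered 10.8% and 12.4% and H3K27me3 86.3% and 56.6%. Between the last Ezh2 region in Pdgfra and the first before Kdr lay 691 kb without one, and the matching stretch without an H3K27me3 region was 444 kb. The Ezh2 regions at both edges were weak, with folds of 2.73 and 2.15 on the Pdgfra side and 2.29 and 2.17 on the Kdr side.

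Runx1 ran the other way along the same stretch. It had 14 regions between Pdgfra and Kit, 9 in Kit and 16 between Kit and Kdr, and 0 inside Pdgfra or Kdr. The regions in the gaps were often higher than those in Kit itself. The highest lay 109 kb before the Kit start (chr5:75465593-75466124), with folds of 21.3 and 21.0 in replicates 1 and 2, above 93.1% of all Runx1 regions. A neighbour 114.5 kb before the start had folds of 10.0 and 11.7. Regulatory elements far upstream of Kit are known in blood cells, and whether these regions match them was not tested. After Kit the highest region lay 251 kb past the start, with folds of 16.0 and 20.6. The last Runx1 region of that gap ended 266 kb after the Kit start, the first H3K27me3 region began at 288 kb and the first Ezh2 region at 305 kb. Within the gap Runx1 regions therefore ended before Polycomb regions began, and the next Runx1 region lay beyond Kdr, at its upstream side. On the Pdgfra side they did not part so cleanly, as 5 of the 6 H3K27me3 regions of that gap lay among its Runx1 regions, each with a mean fold of at most 2.29.

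**Figure D3:**
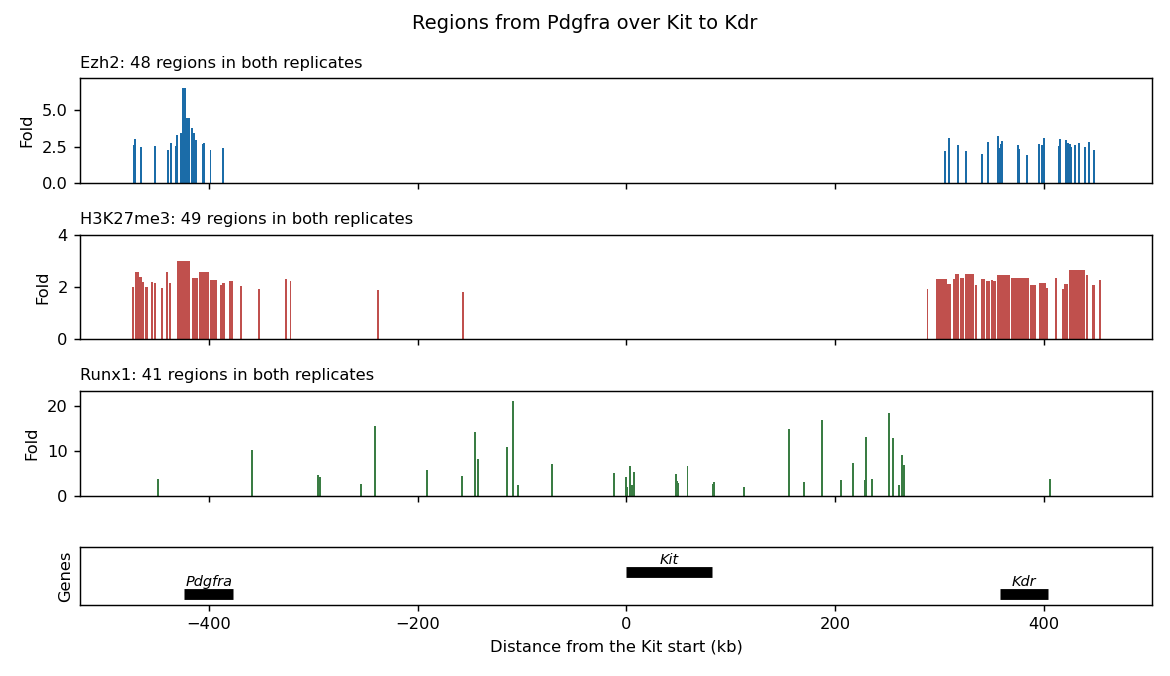
Regions found in both replicates from 50 kb before Pdgfra to 50 kb after Kdr, as bars at their distance from the Kit start in kb, with the mean fold enrichment of the replicates as height (the scales of the panels differ, and narrow regions are drawn at a minimum width). Ezh2 and H3K27me3 stand over Pdgfra and Kdr, beyond both genes and between Kit and Kdr. H3K27me3 also has 6 regions between Pdgfra and Kit. Runx1 stands over Kit and the gaps, with 2 regions outside.

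Flt3, the FLT3 ligand receptor of early lymphoid and myeloid progenitors, lies on chromosome 5 (147330741 to 147400489, minus strand). It combined both signals in its window but at different places. Runx1 had 14 and 15 peaks in replicates 1 and 2, covering 3.50% and 4.08% of the window. Ezh2 had 34 and 29, covering 11.3% and 9.57%, and H3K27me3 had 9 and 9, covering 22.3% and 15.6%. Inside the gene, however, Ezh2 had 2 and 0 peaks and H3K27me3 1 and 0, and none formed a region. All 19 Ezh2 and all 5 H3K27me3 regions of the window lay past the 3′ end, starting 8.03 kb and 7.17 kb from it.

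The Polycomb domain beside Flt3 covered Urad and Cdx2, a caudal-type homeobox gene of the intestine. Its main H3K27me3 region was 26.2 kb wide and spanned both genes, with folds of 2.75 and 2.71 in replicates 1 and 2. The highest Ezh2 region lay over Cdx2, was 5.32 kb wide and had folds of 6.11 and 5.07, higher than 98.9% of all Ezh2 regions. The next Ezh2 region beside it had folds of 3.601 and 4.49, and the next H3K27me3 region 2.49 and 2.23. These regions lie in the flank of Flt3.

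Inside Flt3 were 6 Runx1 regions, and each Runx1 peak of replicate 1 had a partner in replicate 2. The highest had summits 33.9 kb after the start in both libraries, with folds of 9.94 and 13.4, above 83.2% of all Runx1 regions. Its neighbour at 37.2 kb had folds of 6.38 and 7.63. A region with summits at 7.39 and 7.66 kb had folds of 3.48 and 7.62, so that its height depended on the library. Over the start the summits lay 132 and 187 bases after it, just beyond the printed bases, with folds of 4.94 and 3.88. At a q of 1e-05 or less 5 of the 6 regions were kept. The region at the start overlaps the annotated lncRNA gene Gm26597, and the assay cannot assign it to either gene.

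Outside Flt3 its window held 7 more Runx1 regions. On the upstream side 6 regions lay between Flt3 and Pan3 or inside Pan3, a gene of mRNA deadenylation. The highest of them, 1.62 kb wide and centred 30.2 kb before the Flt3 start, had folds of 8.99 and 9.64. The 1 region on the other side had summits 77.1 kb after the start and folds of 5.04 and 7.13. It touched the H3K27me3 region nearest to Flt3, which reached from 76.9 to 80.2 kb, so here Runx1 stood on the edge of the Polycomb domain.

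**Figure D4:**
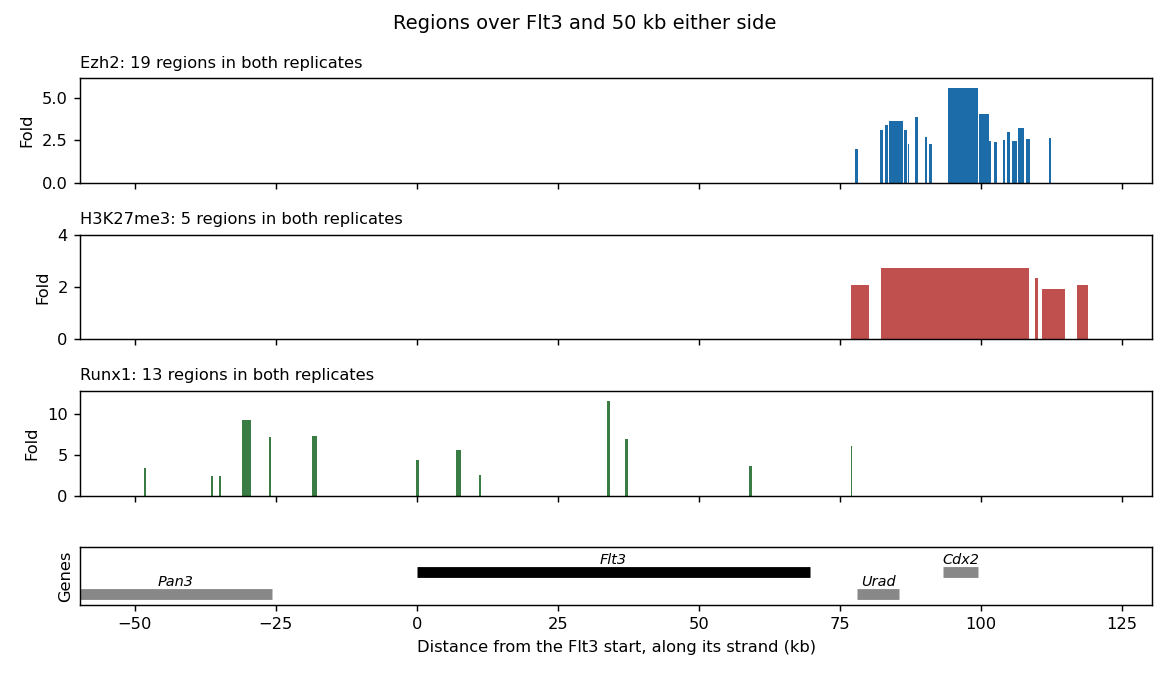
Regions found in both replicates over Flt3 and 50 kb on either side, as bars at their distance from the Flt3 start along its strand in kb, with the mean fold as height (scales differ between panels). All Ezh2 and H3K27me3 regions lie past the 3′ end, at Urad and Cdx2. Runx1 regions lie over Flt3, upstream of it and, at 77.1 kb, past the 3′ end.

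Csf1r, the receptor for CSF1 and interleukin 34 that macrophages need, lies on chromosome 18 (61105572 to 61131139), 20.5 kb from Pdgfrb (61045127 to 61085067). Their windows therefore share peaks, and 18 Runx1 regions in all made up the 11 in the window of Csf1r and the 15 in that of Pdgfrb. Neither Ezh2 nor H3K27me3 had a peak in the window of Csf1r in either replicate. The window of Pdgfrb had 0 Ezh2 peaks in both replicates and 1 and 0 H3K27me3 peaks. The pair was thus free of both in a stretch of 356 kb between Ezh2 regions and of 290 kb between H3K27me3 regions. No start or strand of these genes was used, so positions are counted from their lower ends.

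Runx1 peaks numbered 12 and 17 in the window of Csf1r in replicates 1 and 2, covering 3.26% and 4.45%. Inside the gene were 3 and 5 peaks, which gave 3 regions. The highest had summits 3.09 and 3.10 kb from the lower end, with folds of 9.01 and 9.41. The others lay at 13.9 kb, with folds of 6.06 and 5.61, and at 14.5 kb, with folds of 2.82 and 3.14. All 3 were kept at a q of 0.01 or less, and their order of height was the same in both libraries. Csf1r is known for an enhancer in an intron, FIRE, and whether a region lies on it was not analysed here. Higher regions stood in the flank, inside Hmgxb3, at 51.0 kb from the lower end of Csf1r with folds of 13.0 and 19.2, and at 71.5 kb, where LOC108168367 overlaps Hmgxb3, with folds of 14.0 and 13.3.

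Pdgfrb, a receptor of pericytes and other mesenchymal cells, carried the highest Runx1 region of all 7 receptors. Its summits lay 2.71 kb from the lower end in both libraries, with folds of 26.6 and 38.4 in replicates 1 and 2, above 96.8% of all Runx1 regions. Inside the gene were 5 and 7 peaks, which gave 5 regions, all within 12.7 kb of the lower end. The region at the lower end itself had folds of 7.66 and 6.22, and the other 3 had mean folds between 2.14 and 4.65. Peaks numbered 17 and 23 in the window and covered 4.58% and 6.20% of it. The mean of 5.39 ± 1.14% (SD, n = 2) was higher than that of 92.6% of genes. Between Pdgfrb and Csf1r a further strong region, 14.3 kb below Csf1r, had folds of 15.3 and 17.99.

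**Figure D5:**
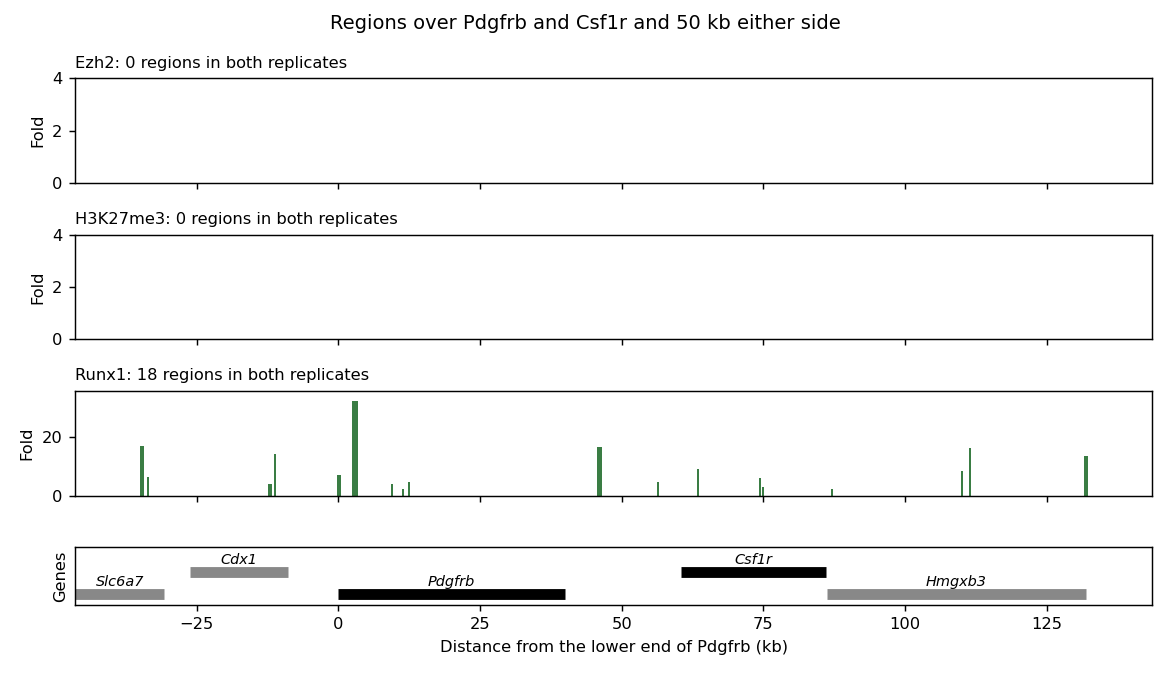
Regions found in both replicates over Pdgfrb and Csf1r and 50 kb on either side, as bars at their distance from the lower end of Pdgfrb in kb, with the mean fold as height. The 18 Runx1 regions run over both genes and both flanks, and the panels of Ezh2 and H3K27me3 hold 0.

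Pdgfra, a receptor of mesenchymal and glial progenitors, lies on chromosome 5 (75151322 to 75198206, plus strand) and was covered by Polycomb. Its window had 38 and 37 Ezh2 peaks in replicates 1 and 2, covering 14.4% and 12.4%, and 31 and 33 H3K27me3 peaks, covering 41.9% and 30.6%. Mean Ezh2 coverage was 13.4 ± 1.39% (SD, n = 2), above 94.6% of genes. Inside the gene were 10 Ezh2 and 7 H3K27me3 regions. The highest Ezh2 region reached from 3.00 kb before the start to 0.297 kb after it, with folds of 7.75 and 5.35, above 99.2% of all Ezh2 regions. The next was 4.32 kb wide behind the start, with folds of 4.06 and 4.91. Both overlapped an H3K27me3 region 13.0 kb wide with folds of 3.32 and 2.67, above 99.1% of all H3K27me3 regions. The next H3K27me3 region by height lay 47.3 kb before the start, with folds of 2.54 and 2.63. The highest Ezh2 and the highest H3K27me3 region of Pdgfra thus both overlapped the start. The Ezh2 summits lay 2.24 and 2.22 kb before it in replicates 1 and 2, and the H3K27me3 lists give no summit. The mark at the start was kept at a q of 0.01 and not at 1e-05, where 2 Ezh2 regions were left.

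Runx1 in the window of Pdgfra numbered 4 and 2 peaks, of which 2 formed regions, both outside the gene. The one after the gene, 63.8 kb from the start, was high, with folds of 9.21 and 10.9. The one 26.2 kb before the start had folds of 2.94 and 4.51. A single Runx1 peak inside Pdgfra in replicate 1 had a fold of 2.07 and no partner.

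Kdr, the main VEGF receptor of endothelium, lies on chromosome 5 (75932827 to 75979072, minus strand) and had the largest share of its window under the mark among the 7. H3K27me3 peaks numbered 30 and 43 in its window in replicates 1 and 2 and covered 69.0% and 46.6% of it. The mean of 57.8 ± 15.8% (SD, n = 2) was higher than that of 97.4% of genes. Ezh2 peaks numbered 61 and 62 and covered 12.4% and 13.7%. The signal was broad but low. The highest Ezh2 region of the window had folds of 3.88 and 2.65 and lay 46.4 to 47.7 kb after the start, just past the 3′ end. Inside the gene the highest lay 3.64 kb after the start, with folds of 3.23 and 3.01. The highest H3K27me3 region was 16.0 kb wide, upstream of the start, with folds of 2.46 and 2.81, and the next, 8.33 kb wide past the 3′ end, had 2.71 and 2.29. At a q of 0.01 or less 1 Ezh2 region and 0 H3K27me3 regions were left in the window, so the cover of Kdr rests mostly on weak peaks. Pdgfra, at the same threshold, kept 5 and 1. With all peaks, 25 of 30 and 42 of 43 H3K27me3 peaks in the window of Kdr touched a peak of the other replicate. For Ezh2 there it was 30 of 61 and 29 of 62, so many of those peaks did not recur.

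Runx1 was nearly missing at Kdr, with 2 and 2 peaks in the window and 1 region. That region lay 2.65 kb before the start, with folds of 3.98 and 3.34. A single Runx1 peak inside Kdr in replicate 1 had a fold of 2.16 and no partner.

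Tek, the angiopoietin receptor, lies on chromosome 4 (94739086 to 94874976, plus strand) and had the least replicated signal. H3K27me3 peaks numbered 52 and 20 in its window in replicates 1 and 2, covering 14.3% and 4.56%, so the libraries differed widely. They gave 12 regions inside the gene, the highest with folds of 2.65 and 2.05 near its 3′ end, and one 1.20 kb before the start with folds of 2.39 and 2.17. Ezh2 peaks numbered 13 and 11, of which 1 formed a region, outside the gene in the neighbour Eqtn, with folds of 2.80 and 2.33. The highest H3K27me3 region of the window lay at the same place, with folds of 2.65 and 2.79. Runx1 had 4 and 0 peaks and no region, and the nearest Runx1 region was 104 kb away, farther than for 84.5% of genes. At a q of 0.01 or less no antibody had a region in the window of Tek.

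Runx1 and Polycomb regions rarely met in the 7 windows, as was the case over all Runx1 regions. Of the 47 distinct Runx1 regions 0 touched an Ezh2 region, against 4.17% of all Runx1 regions, and 1 touched an H3K27me3 region, against 6.54%. That 1 is the region past the 3′ end of Flt3. These counts turned on the library: with replicate 1 alone 2 Runx1 peaks touched Ezh2 and 9 touched H3K27me3, and with replicate 2 alone 1 and 0 did. No test was made. Of the 67 Ezh2 regions 63, or 94.0%, touched an H3K27me3 region, which is near the 90% of all Ezh2 regions.

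Where Runx1 peaks of both replicates overlapped, their summits lay close together, which the required overlap favours. Summed over the 7 windows, 56 of 73 Runx1 peaks of replicate 1 touched a peak of replicate 2. The other way it was 55 of 78, and peaks shared by the windows of Csf1r and Pdgfrb count in both. Median distance between the summits of the 2 libraries was 22 bases over the 47 regions, and 39 of them had summits within 60 bases. Their median fold was 4.84, against 4.69 over all Runx1 regions. Fold was higher in replicate 2 in 35 of the 47, or 74.5%, against 67.8% of all Runx1 regions, so higher folds in replicate 2 were common throughout the list. Inside the 7 genes 15 Runx1 peaks were in 1 list alone, with folds from 1.34 to 2.94, and 0 of them reached a q of 0.01.

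The other genes of these pathways showed where Runx1 and Polycomb stood around the receptors, with regions counted inside the gene span. An Ezh2 region was found in 8 of 14 ligand genes, an H3K27me3 region in 9 and a Runx1 region in 10, to be read against the 24.6%, 36.8% and 56.5% of all genes. Pdgfb, a ligand of both PDGF receptors, had the highest Ezh2 folds among them, 22.4 and 18.6 in replicates 1 and 2, with H3K27me3 folds of 3.63 and 3.88. Pdgfa, the ligand of Pdgfra, had Ezh2 folds of 11.3 and 8.41. Vegfa, a ligand of Kdr, carried Ezh2 at 5.67 and 4.99 and Runx1 at 22.7 and 20.6. Pdgfc had H3K27me3 folds of 3.36 and 2.29. Angpt1, the ligand of Tek, had the highest Runx1 folds of the ligands, 29.2 and 44.2. Angpt1 thus carried the factor that had no region in the window of its receptor Tek.

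Among 10 related receptors and co-receptors Ezh2 was found in 7, H3K27me3 in 7 and Runx1 in 8. The shares over all genes were 24.6%, 36.8% and 56.5%. Nrp2, a co-receptor for VEGF and semaphorins, had Ezh2 folds of 13.5 and 9.10 and H3K27me3 folds of 3.61 and 3.99. Nrp1, its relative, had Ezh2 at 9.89 and 9.71 and Runx1 at 5.14 and 8.59, and Flt4, the lymphatic VEGF receptor, had Ezh2 at 8.77 and 8.46. Flt1, a VEGF receptor beside Pan3, had Runx1 at 17.6 and 20.7, and Il3ra, an interleukin 3 receptor chain, at 18.9 and 10.4.

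Genes downstream of the receptors nearly all held a Runx1 region. All 22 signal transducer genes had a Runx1 region, against 56.5% of all genes, whereas 1 had Ezh2, against 24.6%, and 2 had H3K27me3, against 36.8%. Runx1 folds were 32.1 and 30.8 at Pik3r1, a PI3 kinase subunit, 33.1 and 28.1 at Sos1, which activates RAS, and 31.1 and 27.6 at the adaptor Grb2. The Ezh2 region was at the docking protein gene Gab1, with folds of 4.04 and 4.03. Among 16 negative regulators Runx1 was found in 15, Ezh2 in 1 and H3K27me3 in 3, to be read against the same shares of all genes. Spry2, an inhibitor of receptor signalling to RAS, had H3K27me3 folds of 2.82 and 2.24. Sh2b3, also called Lnk, which restrains Kit and cytokine receptors, had Runx1 folds of 127.8 and 109.9, far above any region of the receptors. Inpp5d, the phosphatase SHIP1, had 46.4 and 46.6.

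Among 13 genes of blood transcription factors known from the control of Kit, Flt3 or Csf1r, Runx1 was found in 12, Ezh2 in 2 and H3K27me3 in 3. Over all genes the shares were 56.5%, 24.6% and 36.8%. The highest Runx1 folds, 56.0 and 72.0, were at the Runx1 gene itself, and others were 27.4 and 40.1 at Lyl1 and 33.1 and 33.2 at Spi1. Erg had Ezh2 folds of 7.85 and 3.97, and Hoxa9 of 4.96 and 6.35. Among 16 genes near the receptors Runx1 was found in 11, Ezh2 in 7 and H3K27me3 in 7, to be read against the same shares. Runx1 was highest at Pan3, at 25.9 and 43.0, and H3K27me3 at the homeobox gene Gsx2, at 3.14 and 2.99. Flt1 counts in the receptor and in the neighbour list. Long genes have more room for a region, which these counts do not adjust for.

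Genes most like each receptor were found by the share of the window covered in the 6 libraries, as the Euclidean distance in log2(percent + 0.1). Kit was nearest to Snx8 (distance 0.413), Flt3 to Shbg (0.284), Csf1r to H60c (0.00911), Pdgfra to Rimklb (0.399), Pdgfrb to Rell2 (0.200), Kdr to Ccdc121 (0.267) and Tek to C1ql3 (0.325). Among the receptors Kit and Csf1r were nearest to each other, at 1.68, and so were Pdgfra and Kdr, at 1.67. Many other genes lay nearer, since Csf1r ranked 410 in nearness to Kit and Kdr ranked 1008 in nearness to Pdgfra. Distances between these receptors were below the median distance of Kit and of Pdgfra to all genes, 9.75 and 6.63. Tek was the farthest from its nearest receptor, Pdgfra, at 6.30, which is close to its median distance of 6.59 to all genes. A share of 0% enters these distances as the added 0.1, as for Ezh2 and H3K27me3 in both Csf1r and H60c.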

How the data were processed

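Peak lists of 6 ChIP-seq libraries were analysed, 1 per replicate of each antibody, as deposited. Tools listed, per the submitters' processing notes, are MACS2 2.0.10, Bowtie2 2.2.1, SAMtools and Picard, with mm10 as the build. Per deposited peak the lists give a fold enrichment, which is a linear ratio of the authors, −log10 p- and q-values, and a score that was not used. Ezh2 and Runx1 are narrow peaks with summits, and H3K27me3 is a broad list with an input of its own per the labels, so its folds are not comparable with theirs. The lists are permissive and hold many peaks that miss a q of 0.01. Depth is unknown, as the lists hold no read totals. The labels do not say that replicates were separate cultures, so their spread may be technical.

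Peaks of both replicates that overlapped by at least 1 bp were merged with Python 3.11.15 and pandas 2.3.3, and runs with peaks of both lists were kept as regions, whose fold is the highest peak of each list there. Genes came from RefSeq on GRCm38.p6, matched by symbol, and percentiles are over all 21887 protein-coding genes or all regions. The code was tested on simulated peaks. With 2 libraries per antibody no test was made. The receptors, the gene lists and the rule for named genes (up to 3 intragenic Runx1 regions and 2 Ezh2 and H3K27me3 regions per receptor, up to 3 genes per list and antibody by mean fold, and the nearest gene per receptor) were chosen with earlier results of these data known. Further regions and Runx1 regions outside the genes were named after their values were seen. Exons and introns were not used. Of the genes that the rule names, 1 is not reported here.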

Additional observations from a re-analysis of the deposited data

How the results depend on the processing

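Region counts were recomputed with stricter peaks, another overlap, single replicates and other flanks. Receptors with an H3K27me3 region in the window numbered 2 at a q of 0.01 or less and 0 at 1e-05, against 4 with all peaks. Those with Ezh2 numbered 2 at 1e-05. With the 10000 peaks of lowest p in each list Ezh2 and H3K27me3 each had 2, and the Runx1 regions inside the genes, 23 with all peaks, numbered 2. Shares of all genes at 1e-05 and with the 10000 strongest peaks were not computed. In the gene span alone 2 receptors had Ezh2. The Runx1 regions touching H3K27me3, 1 with all peaks, were 0 at a q of 0.01 or less, at 1e-05, with the 10000 strongest peaks and within the gene span alone, and those touching Ezh2 were 1 with 100 kb on either side. With either replicate left out, Runx1 peaks touching Ezh2 numbered 1 to 2 and those touching H3K27me3 0 to 9. The causes were not tested, except that stricter lists hold fewer peaks. Requiring 50% overlap of the smaller peak changed none of these counts. Receptors with Runx1 numbered 5 at 1e-05 and 4 with the 10000 strongest peaks, and Kit then had 0. Of 376 single values per gene under settings that keep both replicates, 191 moved by less than the SD of the replicates and 185 by more. No paired analysis was possible because the results come from no test. Depth is unknown, so a window without peaks shows no signal called here, not its absence.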
